A study of Mus musculus with 6 samples.

Results

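The genes described here are the 81 cytosolic ribosomal protein genes of the mouse count table, out of 20199 genes in all, of which 14195 are marked protein-coding. They were chosen by name and not by any measured value: a protein-coding gene entered if its symbol was Rpl or Rps followed by a number (with the usual suffix letters), Rplp0, Rplp1, Rplp2 or Rpsa. Ribosomal S6 kinases and rows marked as pseudogenes were left out. The set holds 32 proteins of the small (40S) subunit, 46 of the large (60S) subunit and 3 of the stalk, the flexible arm of the large subunit, and it includes 4 near-copies of other members (Rpl22l1, Rpl36al, Rpl7l1 and Rps27l). All 81 were expressed highly enough to be tested.

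The libraries were bulk RNA sequencing of smooth muscle cells, which give the vessel wall its tone, taken from the aorta of C57B6 mice at 12 weeks. The 3 knockout libraries came from mice whose miR-21 gene, which encodes a microRNA, was floxed (miR-21fl/fl), and the 3 wild-type libraries from mice labelled WT. Both groups carried the mTmG reporter, whose fluorescence switches where Cre has acted, and Myh11ERT2, an inducible construct under the smooth muscle myosin promoter, so a deletion would be limited to cells that use that promoter. The samples are called knockout after the submitters' own group label. The labels do not say whether the construct was induced, how cells were isolated, or whether each library is a separate animal, so the p-values measure only the spread between these samples, which may in part be technical. Loss of miR-21 itself was not checked here.

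Ribosomal proteins assemble with ribosomal RNA, in nearly equal numbers of each, into the particle that translates all nuclear-encoded messages. Their messages are short and abundant, and most begin with a C followed by a run of pyrimidines, the 5′ terminal oligopyrimidine (TOP) tract, through which mTORC1 and Larp1 control how much of them is translated; that control acts on translation and need not show in RNA levels. Mammalian genomes also carry many processed pseudogenes of these genes, intronless copies whose sequence is so close to the parent that sequencing reads cannot always be placed.

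RefSeq start-site windows of build GRCm38.p6 could be matched for 61 of the 81 genes. The letters CTTTC, searched on the gene's own strand from 30 bases before to 20 after the annotated start, were present in 18 of these 61 (29.5%), against 6.97% of the 9631 protein-coding genes that were tested and have a window. The letters CCGGAAG, which many ETS-family factors bind, were present on either strand of the window from 250 bases before to 50 after the start in 25 (41.0%), against 20.03%. TATAA within the 50 bases before the start, on the gene's own strand, was present in 5 (8.20%), against 3.08%. The windows below show 4 starts with the pyrimidine letters and the starts of the pair of genes with the smallest p-values in either direction, Rps7 and Rpl34. Each is written 5′ to 3′ on the strand of the gene, with 30 bases before and 20 after the start, and capitals mark the CTTTC nearest the start.
Rplp2, chr7:141447621-141447670, plus strand: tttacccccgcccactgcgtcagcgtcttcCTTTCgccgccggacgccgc
Rpl38, chr11:114668550-114668599, plus strand: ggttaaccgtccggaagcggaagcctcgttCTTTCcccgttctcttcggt
Rps27, chr3:90213629-90213678, minus strand: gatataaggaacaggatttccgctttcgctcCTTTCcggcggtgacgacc
Rpl28, chr7:4792935-4792984, plus strand: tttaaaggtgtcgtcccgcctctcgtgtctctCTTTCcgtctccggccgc
Rps7, chr12:28635934-28635983, minus strand: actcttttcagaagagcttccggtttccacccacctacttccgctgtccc
Rpl34, first listed start, chr3:130730379-130730428, minus strand: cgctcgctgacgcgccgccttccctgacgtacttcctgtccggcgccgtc
Rpl34, second listed start, chr3:130730318-130730367, minus strand: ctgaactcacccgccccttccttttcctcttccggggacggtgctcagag
In Rplp2 and Rpl38 the capitals begin at the annotated start, in Rps27 they lie 1 base after it and in Rpl28 they lie 2 bases after it. The count of 18 genes took the letters anywhere in the window, so these examples do not show where they usually lie. The match is one of letters, and the absence of the letters in the Rps7 and Rpl34 windows says nothing about how those messages are translated. The 18 genes with the letters had a median log2 fold change (knockout over wild type) of -0.15, and the 43 without them had -0.14.

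Library totals ran from 17216701 to 27568002 counts in knockout and from 17123748 to 28610649 in wild type. All 8 smooth muscle markers were present, and their summed level lay between 46310 and 47420 counts per 1000000 counts (CPM) in knockout and between 43590 and 48950 CPM in wild type. Red-cell markers were present throughout, summing to between 839 and 1040 CPM in knockout and between 380.0 and 1185 CPM in wild type, the lowest value being that of wild-type replicate 1. Markers of other cells were lower. The summed macrophage markers (11 of 12 had a row) reached 11.1 CPM at most, and the summed lymphocyte markers (3 of 10 had a row) 0.454 CPM. Endothelial markers ran from 72.6 to 98.3 CPM and adventitial fibroblast markers from 84.5 to 178 CPM over the 6 libraries. In the ribosomal protein genes 1 library, wild-type replicate 1, lay far above the other 5. Counts and medians over groups of genes are given with and without it below, as are the fold changes of the ribosomal protein genes named.

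No ribosomal protein gene differed between the genotypes past the threshold. With the quasi-likelihood test of edgeR at a threshold of 0.05, after Benjamini-Hochberg adjustment over the 15185 tested genes, 0 of the 81 were called, as were 0% of all genes. The smallest adjusted p among the members was 0.778. At an unadjusted p under 0.05, 0 members were higher and 0 were lower in knockout, against 2.85% of all genes higher and 3.44% lower. DESeq2 called 0 members, against 0.396% of the 16673 genes it gave an adjusted p, and limma voom called 0 members, against 0% of all genes.

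Most members nonetheless had a slightly lower fitted mean in knockout. Only 7 of 81 had a higher fitted mean, against 49.9% of all genes tested. The median log2 fold change was -0.15, with quartiles of -0.18 and -0.08, while the median of all genes was -0.0008. For 69 of the 81 the fold change lay within 0.25 of 0 on the log2 scale. The small and large subunits were alike in this respect, with medians of -0.15 over the 32 small-subunit genes (4 higher) and -0.14 over the 46 large-subunit genes (3 higher), and -0.20 over the 3 stalk genes (0 higher).

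The lower means rest on 1 control library. The member score, the mean over the 81 genes of log2 CPM less each gene's own mean over the libraries, was -0.19, 0.03 and -0.03 in knockout replicates 1 to 3, against 0.47, -0.07 and -0.21 in wild-type replicates 1 to 3. The knockout values thus lay inside the wild-type range. Of the 81 genes, 77 (95.1%) were highest in wild-type replicate 1, as were 32.1% of all genes tested. The ratio of its level to the mean of the other 2 wild-type libraries had a median of 1.54 over the members, with a range of 0.937 to 2.10, against a median of 1.00 over all genes. The lowest library was wild-type replicate 3 for 46 genes, knockout replicate 1 for 23 and wild-type replicate 2 for 10. In bulk RNA, a smaller share of cells that express a gene and less RNA per cell cannot be told apart.

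**Figure D1:**
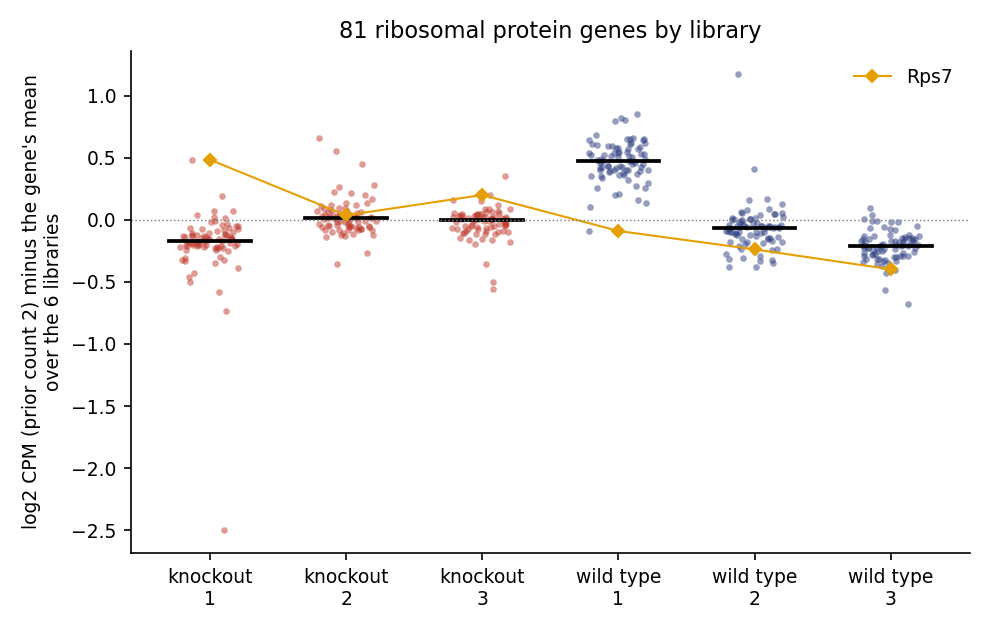
Log2 CPM (prior count 2) of each of the 81 ribosomal protein genes, after subtracting the gene's mean over the 6 libraries, for the 3 knockout and the 3 wild-type libraries; each point is a gene, the bar is the median and the orange diamonds mark Rps7, joined only to show that they are 1 gene. Wild-type replicate 1 is the library with nearly all points above 0, and Rps7 does not follow it.

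Without wild-type replicate 1 the direction turned. Since 77 of the 81 genes were highest in that library, leaving it out raises their fold changes by itself. The values without it are a description and no separate support. Of the 81 genes, 69 (85.2%) then had a higher fitted mean in knockout, against 51.2% of all genes, and the median log2 fold change was 0.08, against 0.005 over all genes. With edgeR and its Benjamini-Hochberg adjustment 0 members were called in these 5 libraries, against 0.0577% of all genes, and the smallest adjusted p of a member was 0.523. At an unadjusted p under 0.05, 5 members (6.17%) were higher in knockout, against 3.68% of all genes, and 0 were lower, against 3.77%. Those 5 were Rps7, Rps23, Rps16, Rpl19 and Rpl23, of which Rpl19 and Rpl23 are named here after their values were seen.

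Numbers of genes with no overlap between the groups come from the same counts and are likewise a description. With all 6 libraries, 1 member (Rps7, 1.23%) was higher in every knockout library than in every wild-type library, against 6.95% of all genes, and 0 members were lower throughout, against 7.57%. Without wild-type replicate 1, 14 members (17.3%) were higher in all 3 knockout libraries than in both wild-type libraries, against 12.2% of all genes, and 0 were lower, against 12.4%. Rpl19, which encodes a large-subunit protein, had 30.3, 31.6 and 31.1 CPM in knockout, against 44.7, 26.6 and 23.7 CPM in wild type. Its knockout values were nearly constant and sat inside the wide wild-type range, and its log2 fold change was -0.03 ± 0.22 (SE) with all libraries and 0.30 ± 0.11 without wild-type replicate 1. Rpl23, also of the large subunit, had 15.5, 18.1 and 19.2 CPM in knockout, against 27.8, 14.1 and 14.6 CPM in wild type (-0.09 ± 0.25, and 0.30 ± 0.13 without wild-type replicate 1).

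**Figure D2:**
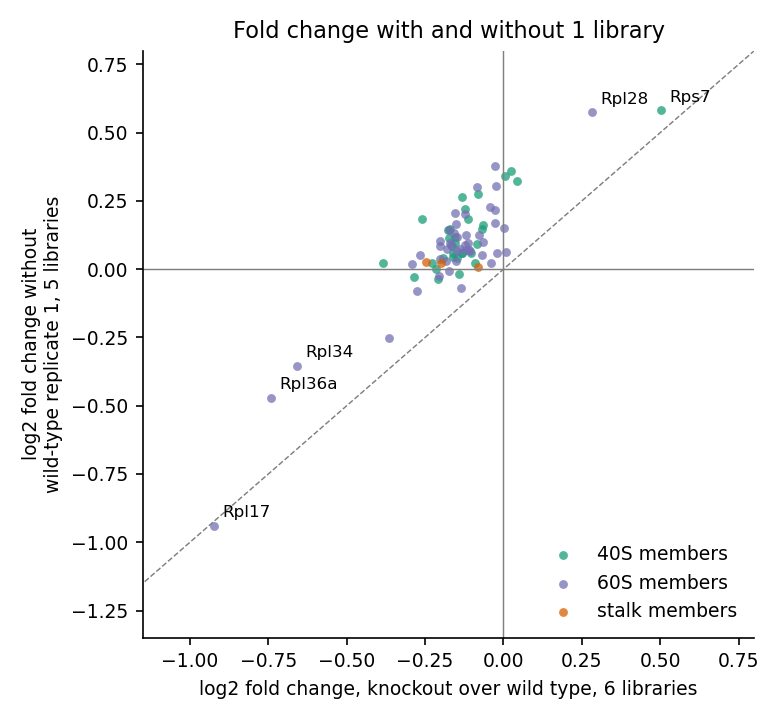
Log2 fold change, knockout over wild type, of each ribosomal protein gene from all 6 libraries (horizontal axis) and without wild-type replicate 1 (vertical axis), coloured by subunit, with the dashed line marking equal values. The cloud of genes lies left of 0 on the horizontal axis (7 of 81 higher) and above 0 on the vertical axis (69 of 81 higher).

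Members moved together between libraries. The median Pearson correlation between a pair of members over the 6 libraries was 0.87, and it was 0.53 over the 5 libraries without wild-type replicate 1; members share library and depth, and both values are given as a description. For 56 of the 81 genes the correlation with the mean of the other members exceeded 0.9, and for 2, Rps7 (-0.11) and Rpl17 (0.38), it was under 0.5. The median coefficient of variation over the members was 7.54% in knockout and 27.2% in wild type. In 76 of the 81 genes the SD was larger in wild type, as it was in 68.9% of all genes.

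As a share of all counts, the 81 genes together took 0.349%, 0.376% and 0.387% of the knockout libraries, against 0.491%, 0.360% and 0.331% of the wild-type libraries. The groups overlapped, and the means were 0.371% ± 0.0199 in knockout and 0.394% ± 0.0850 in wild type (SD, n = 3 each). The difference of -0.0235 percentage points was smaller than the wild-type SD, and it was 0.0249 without wild-type replicate 1. No test of this sum was made.

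The stalk proteins recruit elongation factors to the ribosome. Rplp0, their anchor on the large subunit, had 259, 270.4 and 284 CPM in knockout, against 321, 288 and 251 CPM in wild type. The groups overlapped, and the log2 fold change was -0.08 ± 0.13 (SE; edgeR adjusted p = 0.879), or 0.01 without wild-type replicate 1. Rplp1, one of the acidic stalk proteins, had 60.9, 67.3 and 73.2 CPM in knockout, against 107, 66.6 and 65.3 CPM in wild type. Its partner Rplp2 had 26.9, 28.6 and 28.1 CPM in knockout, against 41.3, 26.8 and 28.0 CPM in wild type. For both, wild-type replicate 1 lay above the other 5 libraries, and the log2 fold changes of -0.25 ± 0.20 and -0.20 ± 0.17 (edgeR adjusted p = 0.786 and 0.796) were 0.03 and 0.02 without it.

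In the small subunit, Rps7 was the gene least correlated with the other members. Rps7, whose human counterpart binds MDM2 when ribosome assembly is disturbed, had 5.18, 3.77 and 4.24 CPM in knockout, against 3.45, 3.10 and 2.77 CPM in wild type. All knockout values lay above all wild-type values. The means were 4.40 ± 0.717 and 3.11 ± 0.341 CPM (SD, n = 3 each), and the log2 fold change was 0.50 ± 0.22 (SE). It did not pass edgeR's test (unadjusted p = 0.0516, adjusted p = 0.778). The gene is thinly covered, with 84 to 119 counts in knockout libraries and 58 to 79 in wild-type libraries. Its fold change was positive in every planned fit, from 0.32 with the counts of its pseudogene row Rps7-ps2 added to 0.60 without knockout replicate 2, with 0.58 without wild-type replicate 1.

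Of the 32 small-subunit genes, 30 were highest in wild-type replicate 1. Rpsa, which also acts as a laminin-binding protein at the cell surface, had 63.9, 69.6 and 69.2 CPM in knockout, against 95.6, 74.4 and 64.4 CPM in wild type (log2 fold change -0.21 ± 0.15, edgeR adjusted p = 0.782, and -0.04 without wild-type replicate 1). Rps6, the substrate of the S6 kinases, had 12.9, 16.4 and 16.4 CPM in knockout, against 22.8, 15.3 and 13.6 CPM in wild type, a log2 fold change of -0.17 ± 0.21, or 0.09 without wild-type replicate 1.

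Rps3, at the entry of the messenger channel, had 168, 158 and 176 CPM in knockout, against 206, 184 and 147 CPM in wild type. Rps2, close to that entry, had 122, 132 and 143 CPM in knockout, against 170.0, 146 and 122 CPM in wild type. In both the groups overlapped, with log2 fold changes of -0.09 ± 0.14 and -0.14 ± 0.14, or 0.02 and -0.02 without wild-type replicate 1. Rps23, which lines the decoding site, had 14.5, 13.4 and 15.8 CPM in knockout, against 20.6, 11.3 and 11.4 CPM in wild type. Rps16 had 11.6, 11.9 and 10.4 CPM in knockout, against 14.98, 9.05 and 8.96 CPM in wild type. For this pair the log2 fold changes were near 0 (0.02 ± 0.23 and 0.04 ± 0.21) and, without wild-type replicate 1, 0.36 ± 0.14 and 0.32 ± 0.15. Rps13 was level at 5.49 ± 0.653 CPM in knockout and 5.49 ± 2.04 CPM in wild type (SD, n = 3 each), and Rps12 was at 5.37 ± 1.30 CPM in knockout and 6.59 ± 1.93 CPM in wild type. Their log2 fold changes were 0.01 ± 0.27 and -0.28 ± 0.26, or 0.34 ± 0.21 and -0.03 ± 0.23 without wild-type replicate 1.

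In the large subunit, Rpl34 and Rpl36a had the smallest p-values among the genes with a lower mean. Rpl34 had 13.5, 27.0 and 15.2 CPM in knockout, against 40.7, 24.6 and 23.0 CPM in wild type. Knockout replicate 2 lay above wild-type replicates 2 and 3, so the groups overlapped. The log2 fold change was -0.66 ± 0.30 (edgeR unadjusted p = 0.0544, adjusted p = 0.778), and -0.35 ± 0.30 without wild-type replicate 1. Rpl36a had 1.54, 1.30 and 1.17 CPM in knockout, against 3.03, 2.29 and 1.44 CPM in wild type, from 27 to 33 counts per knockout library and 41 to 51 per wild-type library. The lowest wild-type value lay below the highest knockout value, and the log2 fold change was -0.74 ± 0.35 (edgeR adjusted p = 0.778), or -0.47 ± 0.37 without wild-type replicate 1.

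Rpl17, near the peptide exit, had the most negative fold change of all members, at -0.92 ± 0.78, on very few counts. It had 0, 0.718 and 0.392 CPM in knockout, against 0.713, 1.07 and 0.455 CPM in wild type, which is 0, 16 and 11 counts in knockout and 12, 21 and 13 in wild type. The groups overlapped, and the SE was the largest of the 81. Its fold change was -0.94 ± 0.88 without wild-type replicate 1. Rpl28, the only large-subunit gene beside Rpl4 and Rpl7a with a higher fitted mean, had 6.03, 10.8 and 10.1 CPM in knockout, against 10.2, 7.37 and 4.90 CPM in wild type. These values overlap widely, and the log2 fold change was 0.28 ± 0.30 (edgeR adjusted p = 0.825), or 0.57 ± 0.28 without wild-type replicate 1. Rpl7a is named here after its values were seen.

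Rpl4, a protein of the exit tunnel wall, had 255, 272 and 288 CPM in knockout, against 290.1, 279.9 and 239.9 CPM in wild type, and its log2 fold change was 0.01 ± 0.12, or 0.06 without wild-type replicate 1. All its knockout values lay inside the wild-type range. Rpl41, the smallest ribosomal protein, had 151, 169 and 184 CPM in knockout, against 263, 163 and 154 CPM in wild type (log2 fold change -0.20 ± 0.20, and 0.08 without wild-type replicate 1). Rpl6 had 27.7, 26.2 and 32.7 CPM in knockout, against 43.9, 32.9 and 28.2 CPM in wild type (-0.28 ± 0.18, and -0.08 without wild-type replicate 1). Rpl24, at the bridge between the subunits, had 2.90, 4.49 and 4.27 CPM in knockout, against 5.83, 4.93 and 4.41 CPM in wild type. Knockout replicate 2 exceeded wild-type replicate 3, and the log2 fold change was -0.37 ± 0.23, or -0.25 ± 0.25 without wild-type replicate 1.

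Rpl5 and Rpl11 form, with 5S ribosomal RNA, the particle that holds MDM2 when ribosome assembly fails. Rpl5 had 3.98, 4.22 and 5.13 CPM in knockout, against 7.01, 4.53 and 3.47 CPM in wild type. Rpl11 had 3.07, 4.04 and 3.42 CPM in knockout, against 4.22, 4.12 and 3.29 CPM in wild type. Both sets of values overlapped, with log2 fold changes of -0.15 ± 0.28 and -0.14 ± 0.22, or 0.17 ± 0.24 and -0.07 ± 0.25 without wild-type replicate 1. The remaining thinly covered large-subunit genes were Rpl12, part of the stalk base (3.65 ± 0.795 CPM in knockout and 3.78 ± 1.68 CPM in wild type), Rpl27 (4.71 ± 0.439 and 5.26 ± 1.61 CPM) and Rpl38 (5.26 ± 0.370 and 6.37 ± 2.32 CPM), each as knockout and then wild type (SD, n = 3 each). Rpl31 had 7.001, 7.09 and 7.01 CPM in knockout, against 9.51, 6.15 and 5.95 CPM in wild type. None of the differences between the means of these genes exceeded the wild-type SD. With wild-type replicate 1 left out, the log2 fold changes were 0.38 ± 0.29 for Rpl12, 0.12 ± 0.22 for Rpl27, 0.05 ± 0.21 for Rpl38 and 0.22 ± 0.17 for Rpl31, against -0.03, -0.15, -0.26 and -0.03 with all libraries.

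The 4 near-copies of ribosomal proteins had log2 fold changes between -0.21 and -0.04. Rpl22l1 had 18.5, 24.4 and 23.2 CPM in knockout, against 35.3, 20.8 and 20.3 CPM in wild type (log2 fold change -0.20 ± 0.22), and its parent Rpl22 was at 29.9 ± 3.62 CPM in knockout and 32.5 ± 7.79 CPM in wild type (-0.11 ± 0.18). Rpl36al had 64.7, 78.6 and 81.3 CPM in knockout, against 107, 80.1 and 72.4 CPM in wild type (-0.21 ± 0.17). Rps27l, a p53-inducible relative of Rps27, had 46.3, 47.9 and 47.7 CPM in knockout, against 65.0, 43.4 and 47.4 CPM in wild type (-0.13 ± 0.16). Rpl7l1, a factor of large-subunit assembly, was at 72.2 ± 2.03 CPM in knockout and 74.3 ± 5.54 CPM in wild type (-0.04 ± 0.11), and its relative Rpl7 was at 127 ± 9.55 and 133 ± 21.2 CPM (-0.07 ± 0.14; SD, n = 3 each). In every one of these the groups overlapped. Leaving out wild-type replicate 1 gave log2 fold changes of 0.10 for Rpl22l1, 0.10 for Rpl22, -0.02 for Rpl36al, 0.06 for Rps27l, 0.02 for Rpl7l1 and 0.05 for Rpl7. Rps4x, the X-linked small-subunit gene, had a log2 fold change of -0.15 ± 0.18 and Rpl39 one of -0.15 ± 0.24. Rps27 had 2.62, 5.57 and 2.92 CPM in knockout, against 5.11, 3.81 and 3.33 CPM in wild type, with a log2 fold change of -0.13 ± 0.33. Rpl3 was at -0.02 ± 0.13 on the log2 scale and Rpl10 at -0.17 ± 0.25. In the 5 libraries other than wild-type replicate 1 these were 0.10 for Rps4x, 0.21 for Rpl39, 0.06 for Rps27, 0.06 for Rpl3 and 0.14 for Rpl10. Rpl3l, Rpl10l and Rpl39l, near-copies that were to be described, were not analysed here.

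Levels can be compared between genes only per length of transcript, which was known for 79 of the 81 genes (median 713 bases). Each length is that of 1 annotated transcript. Those of Rpl24 (4999 bases) and Rps20 (3706 bases) are unusually long, which lowers their values per kilobase. Both fall among the longer members and among the genes under 10 CPM per kilobase given below. Per kilobase, the median member had 34.5 CPM in knockout and 39.0 CPM in wild type, and the genes spread widely around it. There were 12 genes over 100 CPM per kilobase in both groups, among them Rplp0 (199.8 in knockout and 211 in wild type), Rpl4 (191 in knockout and 189.8 in wild type), Rpl7 (151 in knockout and 159 in wild type) and Rpl36al (142 in knockout and 164 in wild type). There were 11 genes under 10 CPM per kilobase in both groups, among them Rps7 (4.57 in knockout and 3.23 in wild type), Rpl11 (4.21 in knockout and 4.65 in wild type), Rpl36a (2.77 in knockout and 4.66 in wild type) and Rpl17 (0.477 in knockout and 0.962 in wild type). Rpl36al thus stood above Rpl36a per length on the gene rows alone, and Rps27l (82.3 in knockout and 90.4 in wild type) above Rps27 (10.7 in knockout and 11.8 in wild type). Rplp0 and Rpl4, both among the highest, overlapped per kilobase between libraries within each group.

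Part of this spread goes with pseudogene rows in the same table. For 49 of the 81 genes the table also lists rows named as pseudogenes of them, 143 in all, of which 7 are marked protein-coding. In 28 of the 49, those rows held more counts than the gene. Over all 81 genes, the genes held 63.2% of the counts of genes and named copies together. Rpl10, which joins the subunit late in assembly, held 5.47% of the counts of itself and its 5 copies, and Rpl10-ps3 alone had 22542 counts over the 6 libraries, against 1854 on Rpl10. Rps6 held 9.40%, with 20365 counts on Rps6-ps4 against 2128 on Rps6. Rpl3 held 15.4%, Rpl36a 6.01% and Rpl17 0.905%. By contrast Rplp0 held 99.8% of the counts of itself and its named copy, and Rpl4, Rpl41 and Rps3 have no such row. Copies were found by name alone, and Rplp0, Rpl4 and Rpl41 still had counts that are not whole.

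**Figure D3:**
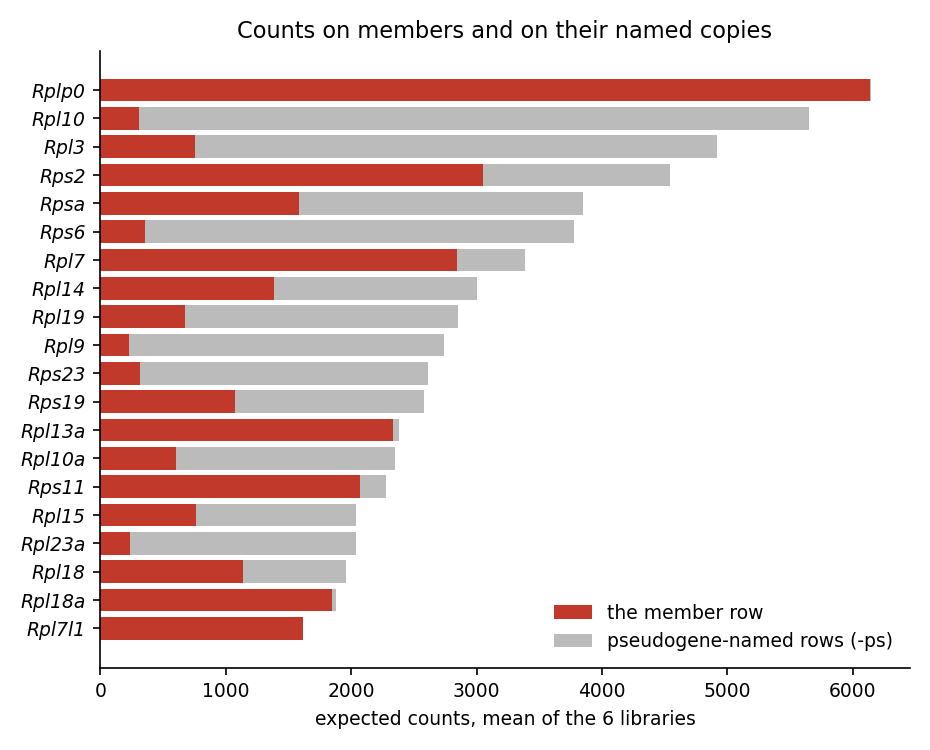
Expected counts, as the mean over the 6 libraries, for the 20 ribosomal protein genes with the most counts on gene and named pseudogene rows together, on the gene (red) and on those rows (grey). For Rpl10, Rpl3 and Rps6 the grey part is longer than the red, and for Rplp0 it is hardly visible.

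Counts that are not whole were common among the members. Only 2 of the 81 members (Rps3 among them) had values within 0.05 of a whole number in all 6 libraries, against 58.2% of the 15104 other genes tested. Levels of single members with copies are therefore uncertain, since the authors' counting could split reads between gene and copy. With the copy counts added to each gene, the outlying fold changes came closer to the rest. Rpl17 was at -0.11 ± 0.16, against -0.92 on its own row, Rpl36a at -0.17 ± 0.21, against -0.74, and Rpl34 at -0.19 ± 0.19, against -0.66. Rpl28 turned to -0.29 ± 0.21, against 0.28 on its own row. Rps7 was at 0.32 ± 0.21, against 0.50. Levels moved as well: with copies added, and as a mean of all 6 libraries scaled by library totals, Rpl36a was at 59.6 CPM per kilobase, against 153.03 for Rpl36al, and Rpl17 was at 78.5, while Rps7 was at 4.70. With copies added, 3 of the 81 had a higher fitted mean and 0 were called by edgeR.

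The high values of wild-type replicate 1 were also present in the members with no row named as a copy. Most of these members still had counts that are not whole, and the part of shared reads was not tested. Of the 32 members with no such row, all 32 were highest in that library, and their score there was 0.49, against 0.47 for the 49 members with copies. With the copies added to the sum, ribosomal protein genes took 0.551%, 0.595% and 0.615% of the knockout libraries, against 0.778%, 0.570% and 0.519% of the wild-type libraries.

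Short transcripts in general were high in the same library. Over the other protein-coding genes with a known transcript length, the score in wild-type replicate 1 was 0.31 up to 500 bases (n = 63 genes), 0.28 from 501 to 1000 bases (n = 657), 0.12 from 1001 to 2000 bases (n = 2617), -0.10 from 2001 to 4000 bases (n = 4634) and -0.24 above 4000 bases (n = 3036). The value was lower with each step in length. Among the ribosomal protein genes the same held: the ratio of wild-type replicate 1 to the mean of the other 2 wild-type libraries had a median of 1.71 over the 17 members up to 500 bases, 1.54 over the 45 members up to 1000 bases and 1.43 over the 17 longer ones. The 78 mitochondrial ribosomal proteins, which are encoded in the nucleus but build a separate ribosome, scored 0.27 in that library. With that library included, 8 of 78 had a higher fitted mean in knockout. Short nuclear-encoded genes of the respiratory chain, chosen by symbol prefix alone and so possibly including assembly factors, scored 0.45 there. Of these, 0 of 52 had a higher fitted mean in knockout, again with that library included. Red-cell markers were lowest in that library, with a summed level of 1040, 899 and 839 CPM in knockout, against 380.0, 968 and 1185 CPM in wild type. The part of transcript length and of red-cell RNA in the ribosomal protein values was not tested.

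**Figure D4:**
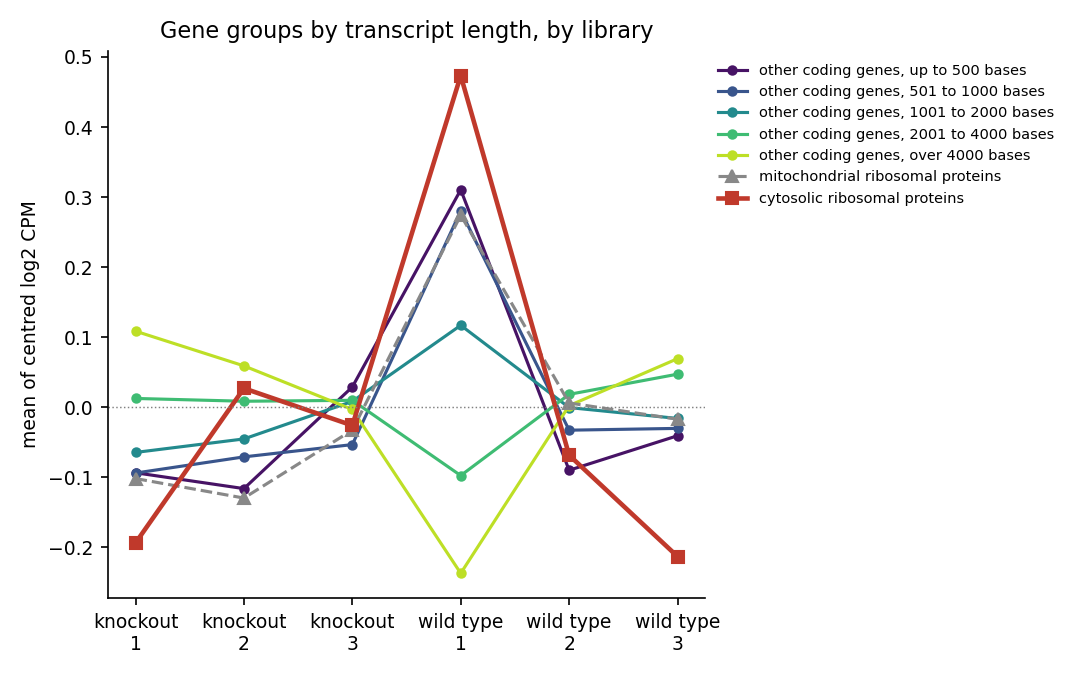
Mean of log2 CPM centred on each gene's mean over the 6 libraries, for cytosolic ribosomal proteins (red squares), mitochondrial ribosomal proteins (grey triangles) and other protein-coding genes in 5 classes of transcript length, by library; lines join the values of 1 group of genes. In wild-type replicate 1 the order runs from 0.47 for cytosolic ribosomal proteins down to -0.24 for transcripts above 4000 bases.

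Genes that work with the ribosomal proteins were described by counts, and edgeR called 0 genes in each of the lists below. Among ribosomal proteins outside the naming rule, Rack1, a scaffold on the small subunit, was at 77.0 ± 6.98 CPM in knockout and 90.6 ± 20.3 CPM in wild type. Fau, made fused to a ubiquitin-like protein, was at 2.86 ± 1.02 CPM in knockout and 3.53 ± 0.149 CPM in wild type (SD, n = 3 each). Both had a lower fitted mean with all 6 libraries. Of the 3 genes of this kind, 1 had a higher fitted mean without wild-type replicate 1 (median -0.05). Of the 22 other genes with a TOP tract, the fitted mean was higher in 4 and lower in 18, and the log2 fold change had a median of -0.12. Without wild-type replicate 1 the split was 11 of 22 higher (median 0.002). The 4 with the smallest p were Cct4, a subunit of a chaperonin (-0.25 ± 0.11), Naca, which binds nascent chains (-0.32 ± 0.14), Hnrnpa1, an RNA-binding splicing factor (-0.40 ± 0.18), and Eif4b, which helps to unwind messages (0.20 ± 0.11).

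Of 38 translation initiation and elongation factors, the fitted mean was higher in 14 and lower in 24, around a median of -0.06, or 13 of 38 higher (median -0.03) without wild-type replicate 1. The 4 with the smallest p were Eif3g (-0.27 ± 0.13), Eif4b, Eif4e, the cap-binding protein (-0.19 ± 0.11), and Eef1e1 (-0.27 ± 0.17). Of 13 host genes of small nucleolar RNAs, whose transcripts often start with the same tract, the fitted mean was higher in 5 and lower in 8 (median -0.04), and 10 of 13 were higher (median 0.17) without wild-type replicate 1. Their score by library was -0.24, 0.18 and 0.0001 in knockout, against 0.45, -0.23 and -0.16 in wild type, the same library being highest as for the ribosomal proteins. The 4 with the smallest p were Snhg20 (-0.33 ± 0.24), Snhg15 (0.36 ± 0.32), Snhg18 (-0.15 ± 0.15) and Snhg8 (-0.21 ± 0.31).

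Ribosome biogenesis factors did not turn with that library. Of 70 tested, the fitted mean was higher in 24 and lower in 46 (median -0.07), and without wild-type replicate 1 it was 14 higher of 70 (median -0.09). Their score in wild-type replicate 1 was 0.0035. The 4 with the smallest p were Mrto4 (-0.36 ± 0.15), Ppan (-0.34 ± 0.15), Rrp15 (-0.37 ± 0.17) and Nop58 (-0.26 ± 0.12), the last a core protein of the box C/D particles that methylate ribosomal RNA. Mrto4, which takes part in assembly of the stalk base, was at 11.1 ± 0.621 CPM in knockout and 14.3 ± 2.12 CPM in wild type (SD, n = 3 each), and its groups did not overlap, though edgeR's adjusted p was 0.778. In 9 of the 70 all knockout values lay below all wild-type values and in 1 they lay above, against the 7.57% and 6.95% of all genes given above.

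RNA polymerase I and its factors, which transcribe the large ribosomal RNA, had a lower fitted mean in 17 of 20 (median -0.12), with Polr2l (-0.50 ± 0.20), Polr2f (-0.38 ± 0.19) and Polr1d (-0.28 ± 0.15), all of them subunits shared with other RNA polymerases, and Taf1c (-0.32 ± 0.22) first by p. Without wild-type replicate 1 the count was 7 of 20 higher (median -0.05). RNA polymerase III and 5S factors had a higher fitted mean in 12 of 20 (median 0.06), with Polr3f (0.31 ± 0.15), Gtf3c2 (0.18 ± 0.12), Polr3e (0.27 ± 0.19) and the repressor Maf1 (0.12 ± 0.12) first by p. That direction turned without wild-type replicate 1, with 9 of 20 higher (median -0.007). Genes of mTORC1 signalling and TOP control had a higher fitted mean in 13 of 21 (median 0.08), and again in 13 of 21 (median 0.04) without wild-type replicate 1. Larp1, which binds the cap and the TOP tract, was at 109 ± 9.27 CPM in knockout and 127 ± 6.31 CPM in wild type (-0.23 ± 0.11), with no overlap. Tsc1, an inhibitor of mTORC1, was at 28.3 ± 4.06 CPM in knockout and 23.1 ± 1.70 CPM in wild type (0.30 ± 0.14), also with no overlap. Eef2k, the kinase that slows elongation, was at 0.27 ± 0.15 and Pdcd4, an inhibitor of initiation and a known miR-21 target, at 0.35 ± 0.19. None of these passed edgeR's test, with adjusted p = 0.778 for Larp1, Tsc1, Eef2k and Pdcd4.

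Genes that answer to disturbed ribosomes were mixed. Of 15 genes of the p53 response, the fitted mean was higher in 8 and lower in 7 (median 0.11, or 0.02 without wild-type replicate 1, with 8 of 15 higher), with Phlda3 (-0.31 ± 0.11), Mdm4 (0.27 ± 0.15), Cdkn1a (-0.46 ± 0.28) and Bax (-0.25 ± 0.16) first by p. Of 18 genes for collided or stalled ribosomes, it was higher in 9 and lower in 9 (median -0.01, or -0.05 without wild-type replicate 1, with 6 of 18 higher), with Edf1 (-0.38 ± 0.17), Map3k20 (0.32 ± 0.22), Ltn1 (0.34 ± 0.24) and Pelo (-0.32 ± 0.22) first by p. Cdkn1a, the p53-induced inhibitor of cell division, was at 164 ± 67.1 CPM in knockout and 225 ± 56.5 CPM in wild type (SD, n = 3 each), and the difference between the means was smaller than the knockout SD and larger than the wild-type SD. Immediate early genes, which respond to handling of cells, had a lower fitted mean in 13 of 14 (median -0.24), and likewise in 13 of 14 (median -0.15) without wild-type replicate 1. Their score was -0.60, 0.23 and -0.05 in knockout, against 0.38, -0.08 and 0.12 in wild type. That score was highest in the library in which ribosomal protein genes were highest, and its part in their values was not tested.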

How the data were processed

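Bulk RNA libraries were made with the Illumina TruSeq RNA kit, per the labels' protocols. STAR 2.6, DESeq2 and build mm10 are named in the submitters' processing notes; no source used here names the counting tool or says whether strand was kept. Values in the table are expected counts per gene as deposited by the authors, not normalised, as read from the values.

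Counts were rounded to whole numbers. Genes passing filterByExpr (15185) were tested with edgeR 4.0.16's quasi-likelihood test (R 4.3.3, TMM scaling, robust=TRUE), 2-sided, 3 knockout against 3 wild type, with Benjamini-Hochberg adjustment over all of them and a threshold of 0.05. SE is the absolute log2 fold change over the root of F. CPM are TMM-scaled, but summed marker levels and levels with copies added were scaled by library totals. Log2 CPM used a prior count of 2. DESeq2 1.42.0, limma voom 3.58.1, other scalings and filters, added pseudogene rows, a replicate block and leaving out each library were alternatives. Whether edgeR's test can find changes as small as those of the ribosomal protein genes was not tested.

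Named were the 6 members with the smallest p in each direction, the 6 highest, those with a mean under 10 CPM, near-copies with parents, the stalk genes, Rpsa, Rps6, Rpl5 and Rpl11, and the first 4 of the other lists by p (values for cell markers as sums). Members and lists were chosen with earlier results of these data known. Transcript lengths came from GENCODE vM1 (length only, the transcript with the longest coding sequence), and start windows from RefSeq, GRCm38.p6. Antisense and overlapping genes are uncertain. A few genes that this rule would name are not reported here.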

Additional observations from a re-analysis of the deposited data

How the results depend on the processing

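edgeR, DESeq2 and limma voom called 0 members in every fit run. Depth limits Rpl17, Rpl36a and Rps7, whose libraries held 0 to 119 counts. The number of members with a higher fitted mean, 7 of 81, was 12 with library totals, 14 with limma voom, 4 with protein-coding genes alone, 3 with pseudogene rows added, and between 2 and 69 when 1 library was left out. It was 69, 69 and 75 without wild-type replicate 1 in DESeq2, limma voom and library totals, 3 settings chosen after seeing the data. The median log2 fold change, -0.15, ran from -0.28 to 0.08 with 1 library left out, being above 0 only without wild-type replicate 1, and was 0.12 in library totals without that library. Library totals moved the median of all genes to 0.04. The share difference, -0.0235 percentage points, ran from -0.0549 to 0.0249.

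Deviations from the group mean correlated at -0.27, -0.18 and -0.08 between same-numbered knockout and wild-type libraries. Differently numbered libraries ran from -0.11 to 0.21. With so few libraries per group these values cannot decide whether the numbers pair samples. With the replicate block, 10 of 81 members had a higher fitted mean (median -0.12), 0 were called, and 572 of all genes tested, against 955 without the block, had an unadjusted p under 0.05.

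Of 37 named members, 21 changed direction without wild-type replicate 1 and 0 to 5 under each other alternative. The cause was not tested. The log2 fold changes that turned were, with library totals, 0.0142 (Rpl12), 0.0202 (Rpl3) and 0.0146 (Rpl31); with limma voom, 0.12 (Rpl12) and 0.0349 (Rpl31). Others were, with protein-coding genes alone, -6.25e-05 (Rpl4) and -0.00441 (Rps13); with pseudogene rows added, -0.29 (Rpl28), 0.00717 (Rpl3), -0.18 (Rps13), -0.12 (Rps16) and -0.0503 (Rps23); with the replicate block, 0.0364 (Rpl12) and 0.00286 (Rpl31). With 1 library left out, the ranges of those that turned were -0.35 to 0.14 (Rpl10), -0.29 to 0.38 (Rpl12), -0.25 to 0.096 (Rpl22), -0.35 to 0.10 (Rpl22l1), -0.32 to 0.12 (Rpl27), -0.0686 to 0.0692 (Rpl3), -0.15 to 0.22 (Rpl31), -0.45 to 0.0531 (Rpl38), -0.34 to 0.21 (Rpl39), -0.0741 to 0.0621 (Rpl4), -0.35 to 0.0846 (Rpl41), -0.37 to 0.17 (Rpl5), -0.18 to 0.0526 (Rpl7), -0.0824 to 0.0219 (Rpl7l1), -0.17 to 0.00916 (Rplp0), -0.38 to 0.028 (Rplp1), -0.30 to 0.0232 (Rplp2), -0.15 to 0.34 (Rps13), -0.0922 to 0.32 (Rps16), -0.13 to 0.36 (Rps23), -0.55 to 0.059 (Rps27), -0.24 to 0.0579 (Rps27l), -0.22 to 0.0225 (Rps3), -0.31 to 0.095 (Rps4x) and -0.32 to 0.0858 (Rps6).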
